A study of Mus musculus with 8 samples.

Results

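The Wnt pathway genes described here are 53 genes of the mouse Wnt signalling system, of 22372 protein-coding genes in the GENCODE vM1 annotation of the mm9 genome. They comprise 19 ligands, 12 receptors and co-receptors, 10 secreted antagonists, 8 cytoplasmic components and 4 TCF/LEF transcription factors. Members were chosen by name from textbook roles, and every listed CpG from 1 kb before to 0.5 kb after each protein-coding transcription start site (TSS) was taken as promoter. All other CpGs between the outermost ends of a gene were taken as its body. A CpG was tested where it had at least 10 calls in each of the 4 libraries compared. Of the 53 genes, 51 had listed CpGs, 48 had tested promoter CpGs (1648 CpGs) and 47 had tested body CpGs (1762 CpGs). Wnt16 and Dkk4 had no listed CpG, Wnt7a, Wnt8a and Wnt8b had none in the promoter, and Wnt1, Sfrp5, Dkk1 and Dkk2 had none in the body.

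Secreted Wnt ligands bind Frizzled receptors together with the co-receptors Lrp5 and Lrp6. When the pathway is on, the complex of Axin, Apc and Gsk3b no longer marks β-catenin for degradation, and β-catenin enters the nucleus and acts with TCF/LEF factors. In neural precursors, Wnt signals are known for roles in proliferation, patterning and the choice of cell fate. DNA methylation (5mC) at a promoter often accompanies a silent gene, whereas bodies of transcribed genes are commonly methylated. TET enzymes, Tet3 among them, oxidise 5mC to 5hmC.

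The libraries came from neural precursor cells (NPCs) differentiated in culture from A2lox.cre mouse embryonic stem (ES) cells, a line with a site for doxycycline-driven transgenes, which were grown on feeder cells before differentiation. The cells carried a Non-targeting shRNA (Scrambled, shScr) or an shRNA against Tet3 (shTet3), and cells of both groups received doxycycline at 2 µg/ml for 5 days. Each shRNA had 2 replicates, and the DNA of each was split for an oxidised library (oxBS, which reads 5mC) and a library that was bisulfite-converted only (BS, which reads 5mC and 5hmC together), giving 8 oxidative reduced representation bisulfite (oxRRBS) libraries. The study used its shRNA Tet3-2 for these libraries, and since the labels do not say whether replicates were separate cultures, p-values may measure technical spread only.

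Total calls per library ranged from 42516767 to 61865967, with median coverages of 43 to 54 per CpG. The study reports the Tet3 knockdown in NPCs in both mRNA and protein. In these libraries the knockdown could not be checked, because methylation does not measure the transcript. Promoter methylation does not give a cell type either: over 102 CpGs of neural precursor genes it was 16.8% and 10.6% in shScr against 11.3% and 10.6% in shTet3, and over 31 CpGs of pluripotency genes 25.7% and 31.9% against 23.1% and 23.1%. Of the fibroblast genes taken as markers of feeder cells, Twist2 alone had tested promoter CpGs, with 31.3%, 43.4%, 30.3% and 28.4% in the same order over 24 CpGs. The part of other cells in the results was not tested. The 2 shScr replicates stood further apart than the 2 shTet3 replicates: 6.83% of all CpGs differed between the shScr oxBS libraries by the criteria used below, against 0.722% between the shTet3 oxBS libraries. At the members, 32 promoter CpGs met those criteria between the shScr replicates (24 lower and 8 higher in replicate 2), and 4 did so between the shTet3 replicates. In the members' bodies, 185 of 1776 CpGs (10.4%) met them between the shScr replicates (38 lower and 147 higher in replicate 2), and 20 did so between the shTet3 replicates.

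The sequences below, in mm9 and read 5′ to 3′ on the forward strand, are the promoter stretches of ligands and of 1 antagonist where at least 2 neighbouring CpGs were lower after Tet3 knockdown (KD). Capitals mark the CpGs called as hypo-DMPs, that is, differentially methylated positions with lower 5mC in shTet3. Wnt3, a ligand, had 3 such stretches, at chr11:103634688-103634755 upstream of the TSS, chr11:103635516-103635544 in the untranslated first exon and chr11:103635682-103635725 in the first intron. The other stretches lay upstream of Wnt2b (chr3:104765313-104765349), in a coding exon of Wnt10b (chr15:98607309-98607365) and upstream of Sfrp2 (chr3:83569743-83569823).
Wnt3 upstream: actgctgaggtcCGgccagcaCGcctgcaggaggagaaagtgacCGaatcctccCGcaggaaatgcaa
Wnt3 first exon: aactattgggggCGtCGctccccctcttc
Wnt3 first intron: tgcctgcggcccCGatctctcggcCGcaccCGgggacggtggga
Wnt2b upstream: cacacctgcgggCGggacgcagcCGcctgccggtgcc
Wnt10b coding exon: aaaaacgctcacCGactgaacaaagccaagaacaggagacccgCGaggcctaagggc
Sfrp2 upstream: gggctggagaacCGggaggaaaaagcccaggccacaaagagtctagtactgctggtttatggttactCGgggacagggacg

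The next 3 sequences are the only CpGs of member promoters with higher 5mC in shTet3 (hyper-DMPs), at chr3:104764887-104764916 (Wnt2b, upstream), chr11:59104136-59104165 (Wnt3a, untranslated exon) and chr5:129106940-129106969 (Fzd10, untranslated exon). Each of these CpGs lies in CpG-rich sequence and was itself close to unmethylated in shScr. The whole promoters had shScr means of 15.7% (Wnt2b), 11.1% (Wnt3a) and 3.98% (Fzd10).
Wnt2b hyper-DMP: ccgacgccacgccaCGccaccgggtcctag
Wnt3a hyper-DMP: ccgagaggagccatCGccggcttgagcgcg
Fzd10 hyper-DMP: caccgcggtggcccCGggcgccgcgagcgc

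The last 5 are the body CpGs with the largest decreases among those where both shTet3 libraries lay below both shScr libraries. They are shown because most of the DMPs lay in bodies, at chr3:130867553-130867582 (Lef1, intron), chr6:119470781-119470810 (Wnt5b, intron), chr11:103590531-103590560 (Wnt9b, untranslated exon), chr5:4756126-4756155 (Fzd1, coding exon) and chr19:55926199-55926228 (Tcf7l2, intron).
Lef1 body: cgtctttccatcccCGggcagaaagtttct
Wnt5b body: gaacaaaagaggacCGggagggacctgggt
Wnt9b body: cccagcatgctgccCGgaggcactgaagaa
Fzd1 body: aaagccacgcagtgCGtccacgttgttgag
Tcf7l2 body: atcacagatgttctCGtttgagcaagcaga

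In the bodies of Wnt pathway genes, 5mC was lower after Tet3 KD throughout the pathway, from ligands to nuclear factors. Mean body 5mC was 37.0% and 41.5% in the 2 shScr libraries and 31.3% and 32.0% in the 2 shTet3 libraries. Both shTet3 libraries thus lay below both shScr libraries, with a difference of -7.59 percentage points (shScr 39.2% ± 3.20, shTet3 31.65% ± 0.469, mean ± SD, n = 2 each). An exact two-sided permutation test gave p = 0.33, the smallest value that 2 against 2 libraries allow. Over the bodies of all protein-coding genes the levels were 45.5%, 53.2%, 38.3% and 39.3%, a difference of -10.5 points, so the members had lower levels and a smaller difference in points. Without shScr replicate 2 the members' difference was -5.36 points, and without shScr replicate 1 it was -9.89 points.

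By role, the largest body difference was at the TCF/LEF factors, which act with β-catenin at target genes, with 52.5% and 60.1% in shScr against 43.7% and 45.7% in shTet3 (-11.6 points, 307 CpGs). Cytoplasmic components had the highest body levels, 70.1% and 78.1% against 64.5% and 66.5% (-8.65 points, 120 CpGs). Antagonists differed by -8.21 points and ligands by -7.80 points. Receptors, many of which are single-exon Frizzled genes, differed least, with 25.9% and 28.3% against 21.4% and 23.2% (-4.78 points, 557 CpGs). In each of the 5 roles both shTet3 libraries lay below both shScr libraries, at the same exact p of 0.33.

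**Figure D1:**
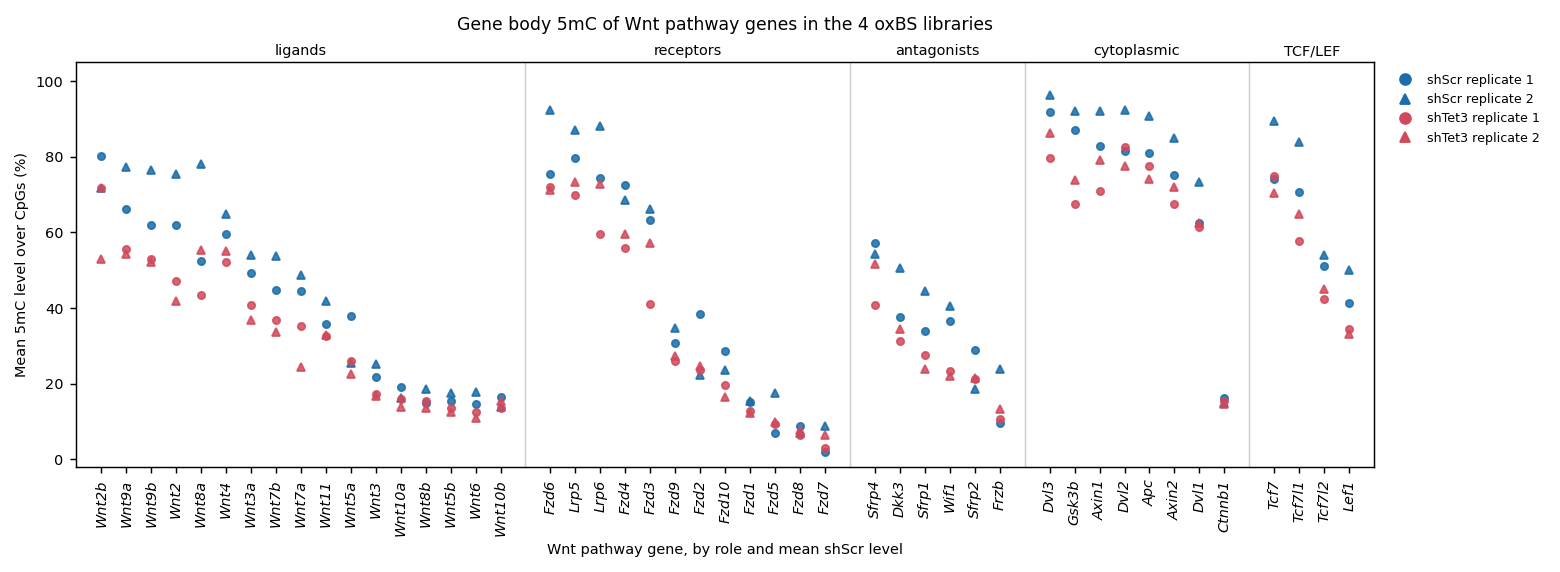
Mean 5mC over the tested body CpGs of each Wnt pathway gene (y axis, %), with genes on the x axis by role and by mean shScr level, 1 point per oxBS library (blue shScr, red shTet3, circle replicate 1, triangle replicate 2). In 34 of 47 genes both red points lie below both blue points, and in the other 13 they overlap.

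Gene by gene, the mean over body CpGs was lower in shTet3 in 47 of 47 members, against a background of 94.6% of genes, and in 34 of them (72.3%) both shTet3 libraries lay below both shScr libraries. The background of the latter was 71.8% of 10911 genes with at least 3 body CpGs, so the members' share was close to that of genes at large. In the BS libraries, 34 of 47 members were separated in this way, against 73.3% of genes. No member had both shTet3 libraries above both shScr libraries, against a background of 0.797%. These shares rest on unweighted means over CpGs. With calls summed over each body, the log2 ratio of methylated to unmethylated calls was lower in 42 of 47 members. It was higher at Fzd2, Fzd7, Fzd8, Wnt10a and Wnt10b.

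Among ligands, the largest difference was at Wnt2, a canonical ligand (chr6:17938940-17980585, minus strand), with 61.9% and 75.4% in shScr against 47.2% and 42.0% in shTet3 over 9 CpGs (-24.1 points). Wnt9a (chr11:59120430-59147054) had 66.3% and 77.3% against 55.7% and 54.4% over 28 CpGs, and Wnt7a, a ligand of the developing nervous system, 44.4% and 48.8% against 35.3% and 24.5% over 13 CpGs. In both genes the shTet3 libraries lay below the shScr libraries, by less than the widest gap between replicates. Wnt9b, which lies next to Wnt3 (chr11:103588678-103611135), had 61.9% and 76.5% against 53.02% and 52.3% over 48 CpGs, and its difference of -16.5 points was -9.22 without shScr replicate 2. Wnt8a had 52.5% and 78.2% against 43.5% and 55.3% over 7 CpGs. Here the groups overlapped, since shTet3 replicate 2 exceeded shScr replicate 1, and the difference of -15.98 points was -3.12 without shScr replicate 2 and -28.8 without shScr replicate 1. Wnt3a, a canonical ligand used widely to activate the pathway, had 49.3% and 54.0% against 40.7% and 36.8% over 55 CpGs (-12.9 points), and Wnt3 had 21.9% and 25.2% against 17.3% and 16.7% over 51 CpGs (-6.52 points).

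Some ligand genes are neighbours on their chromosome. Wnt3a (chr11:59061535-59104254) and Wnt9a lie side by side, with body differences of -12.9 and -16.7 points. Wnt3 (chr11:103635464-103679271) and Wnt9b, also neighbours, had body differences of -6.52 and -16.5 points, from shScr means of 23.5% and 69.2%. Whether neighbours differed from each other was not tested.

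At Gsk3b, the kinase that phosphorylates β-catenin, body 5mC was 87.0% and 92.1% in shScr against 67.5% and 74.0% in shTet3 over 7 CpGs (-18.8 points). The BS libraries at Gsk3b gave 79.3% and 93.9% against 78.9% and 84.5%, where the groups overlapped. Axin2, a scaffold of the degradation complex and a transcriptional target of the pathway, had 75.1% and 85.1% against 67.6% and 72.1% over 27 CpGs (-10.3 points, and -5.30 without shScr replicate 2). Wif1, which binds and blocks Wnt ligands, had 36.5% and 40.6% against 23.3% and 22.1% over 6 CpGs (-15.8 points), a difference that was -8.77 points when levels were weighted by reads and -28.7 with promoters taken from -2 kb to 1 kb. Lrp6, a co-receptor, had 74.5% and 88.2% against 59.7% and 72.9% over 16 CpGs (-15.1 points, and -8.25 without shScr replicate 2 or -8.48 without shTet3 replicate 1). All 4 genes were separated in the oxBS libraries.

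Of the nuclear factors, Tcf7l1, mainly a repressor of target genes, had 70.8% and 83.8% against 57.8% and 64.8% over 68 body CpGs (-16.0 points, and -9.67 without shScr replicate 2). Lef1, mainly an activator, had 41.5% and 50.1% against 34.4% and 33.1% over 113 CpGs (-12.03 points, and -7.68 without shScr replicate 2 or -19.7 with the wider promoters). In both, the shTet3 libraries lay below the shScr libraries, and the same was true of Tcf7l2 at 51.1% and 54.0% against 42.4% and 45.1% over 118 CpGs. The smallest body differences were those of Ctnnb1, which encodes β-catenin (16.1% and 15% against 15.5% and 14.7%), Fzd7, a receptor (1.93% and 8.70% against 2.94% and 6.43%), and Wnt10b (16.4% and 13.9% against 13.5% and 15.5%). In these 3 genes the groups overlapped, and the sign at Wnt10b turned to 0.544 points without shScr replicate 1, to 0.292 points without shTet3 replicate 1 and to 0.933 points when levels were weighted by reads.

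CpG by CpG, a DMP was called at a q below 0.01 (logistic regression of the calls, Benjamini-Hochberg adjustment over 662455 CpGs) and a difference in pooled calls above 10 percentage points. This test takes each call as independent and leaves out the spread between replicates. In the bodies, 256 of 1762 CpGs (14.5%) were hypo-DMPs, in 39 members, against a background of 21.9% of 223768 body CpGs. None was a hyper-DMP by this test or by Fisher's exact test on pooled calls, against a background of 0.142%, and 7 body CpGs were higher by over 10 points at an unadjusted p under 0.05. In 231 of the 256, both shTet3 libraries lay below both shScr libraries. The count was 320 without shScr replicate 1, 143 without shScr replicate 2, 143 without shTet3 replicate 1 and 204 without shTet3 replicate 2. When each of the 4 libraries was left out in this order, 5, 7, 3 and 3 body hyper-DMPs were called.

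Such counts depend on the number of CpGs tested, and the background was 21.9% of all body CpGs. Lef1 held 28 body hypo-DMPs among 113 tested CpGs, Tcf7l2 22 of 118, Wnt4 20 of 71 and Tcf7l1 19 of 68. Lrp5 held 15 of 52, Wnt7b 12 of 37, Wnt3a 11 of 55 and Wnt9b 11 of 48. These 8 members held 138 of the 256, and 8 members with tested body CpGs held none. The intronic Lef1 CpG at position 130867567 read 65.3% and 77.6% in shScr against 26.4% and 25% in shTet3, with 53 to 101 calls per library. Its BS libraries read 47.8%, 78.1%, 36.4% and 42.4%. The Wnt5b CpG at 119470795 read 83.3% and 82.7% against 26.1% and 49.2%, and the Wnt9b CpG at 103590545, with only 19 to 35 calls, 77.8% and 89.5% against 32.4% and 45.7%. The Fzd1 CpG at 4756140 read 77.8% and 72.7% against 30.8% and 37.5% with as few as 11 calls, and the Tcf7l2 CpG at 55926213 read 86.0% and 100.0% against 52.2% and 42.9%. At all 5 CpGs the fall exceeded the gap between replicates of either group.

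In the BS libraries, 295 of 1692 body CpGs (17.4%) were lower in shTet3, against 22.4% of all body CpGs, and none was higher, against 0.0978%. By Fisher's exact test none was higher either, and 6 were at an unadjusted p under 0.05. Of the 240 body hypo-DMPs that were also covered in BS, 229 had a difference of the same sign there and 123 passed the criteria. BS and oxBS libraries of 1 replicate share their DNA, so the BS values are no independent cultures. Without shScr replicate 2 the BS count was 131, and without shTet3 replicate 1 it was 154.

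The difference varied with the part of the gene and with the level in shScr NPCs. Over 715 intronic body CpGs, 5mC was 44.5% and 50.6% in shScr against 37.4% and 37.3% in shTet3 (-10.2 points), and 20.6% of the CpGs were hypo-DMPs. Over 898 coding-exon CpGs it was 35.1% and 38.3% against 29.8% and 31.1% (-6.23 points, 11.6% hypo-DMPs), and over 149 CpGs of untranslated exons 11.99% and 17.6% against 11.5% and 11.4% (-3.38 points). Body CpGs under 2000 bp from the nearest TSS had low levels, 14.3% and 12.8% against 10.6% and 11.1%, whereas those 10000 bp or more away had 53.3% and 61.6% against 45.7% and 46.7%.

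When body CpGs were binned by their mean level in the shScr BS libraries, members with 70 to 100% differed by -14.04 points, where all genes differed by -15.6. In the bin of 40 to 70% the values were -15.4 and -16.6 points, in the bin of 10 to 40% -3.93 and -6.08 points, and below 10% -0.336 and -0.386 points. The lower body level of the members in shScr thus went with a smaller mean difference. Within the same bins the members' difference was still somewhat smaller than that of all genes. These differences from the background were not tested. The bins did not fully match the levels: in the bin of 40 to 70%, shScr oxBS read 51.6% and 59.8% at members against 51.2% and 66.1% at all genes.

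**Figure D2:**
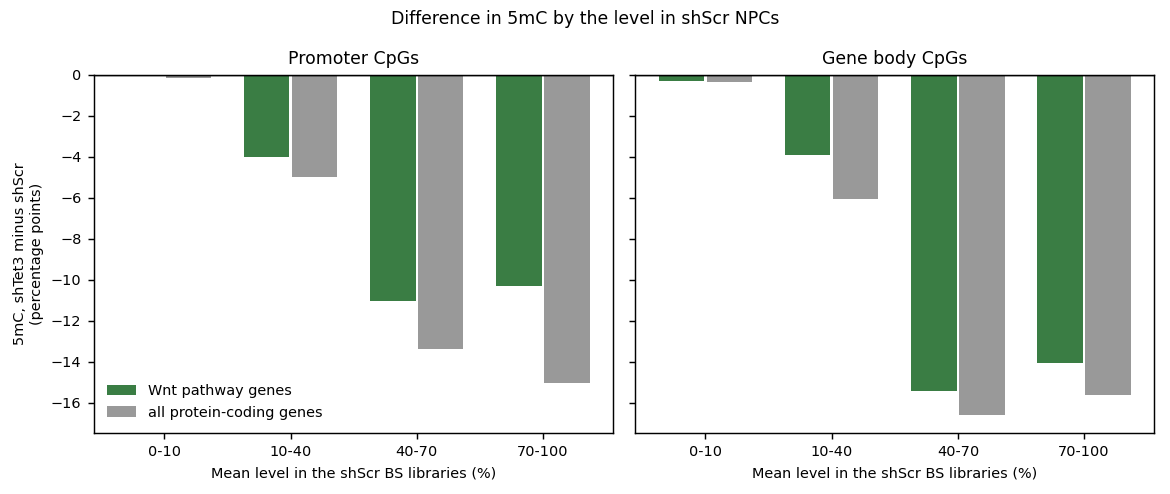
Difference in mean 5mC between shTet3 and shScr oxBS libraries (y axis, percentage points) for CpGs binned by their mean level in the shScr BS libraries (x axis, %), left in promoters and right in bodies, with green bars for Wnt pathway genes and grey bars for all protein-coding genes. Bars lengthen from the lowest bin to the bin of 40 to 70%, where members' bodies reach -15.4 points and all bodies -16.6 points.

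Promoters of Wnt pathway genes were mostly unmethylated, and their mean differed little between the groups. Mean promoter 5mC was 4.98% and 4.57% in shScr against 4.05% and 3.77% in shTet3, a difference of -0.862 points (shScr 4.77% ± 0.290, shTet3 3.91% ± 0.196, n = 2 each, exact permutation p = 0.33). Over all promoters it was 4.69% and 5.55% against 3.90% and 4.03% (-1.15 points). In shScr, 86.6% of the members' promoter CpGs had less than 10% 5mC. Of 48 member promoters, 24 had a mean below 2% in every oxBS library, and 2, those of Wnt10b and Dkk3, had a mean above 20% in every one. The listed CpGs are 1891 of the 6147 CpGs (30.8%) that the mm9 sequence holds in the promoters of the 53 genes, so most promoter CpGs were not analysed here.

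**Figure D3:**
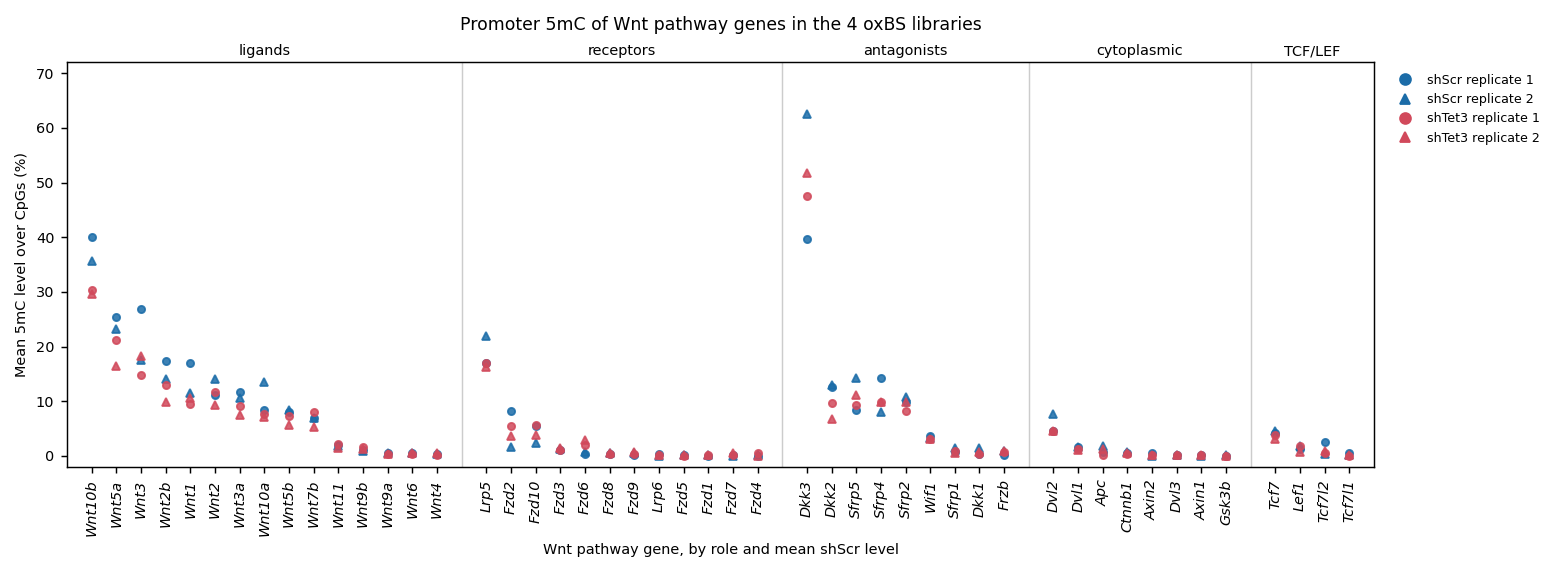
Mean 5mC over the tested promoter CpGs of each Wnt pathway gene (y axis, %, up to 72), with genes on the x axis by role and by mean shScr level, 1 point per oxBS library (blue shScr, red shTet3, circle replicate 1, triangle replicate 2). Ligand promoters spread up to 40.04% at Wnt10b, while most receptor, cytoplasmic and TCF/LEF promoters lie near 0.

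The ligands stood out among the roles by their promoter level, and there 5mC was 10.3% and 8.92% in shScr against 7.93% and 7.14% in shTet3 over 568 CpGs (-2.09 points). Antagonist promoters had 6.56% and 7.66% against 6.10% and 6.39% (-0.862 points), and TCF/LEF promoters 2.25% and 2.16% against 1.74% and 1.48% (-0.596 points). Cytoplasmic components had 0.878% and 1.20% against 0.703% and 0.833%. In these 4 roles both shTet3 libraries lay below both shScr libraries. In BS this held for the ligands alone, at 11.02% and 8.98% against 8.08% and 6.97%. The groups overlapped in BS at the antagonists (-0.658 points), the cytoplasmic components (-0.290 points) and the TCF/LEF factors, where the difference was 0.656 points, opposite in sign. Receptor promoters had 1.58% and 1.32% against 1.66% and 1.55%, with overlapping groups and a difference of 0.152 points, so the receptor mean was not lower.

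Both shTet3 libraries lay below both shScr libraries at 15 of 48 member promoters (31.2%), where the background was 27.4% of 12671 genes with at least 3 promoter CpGs, and above them at 2, Wnt9b and Fzd6, against a background of 7.14%. In BS the count below was 17, against 29.3%. The promoters separated below with 1 or more DMPs were those of Wnt1, Wnt2b, Wnt3a, Wnt5a, Wnt5b, Wnt10b, Sfrp2 and Dkk2. At Wnt3a the only promoter DMP was a hyper-DMP, although the promoter mean was lower in shTet3. That mean was 11.6% and 10.6% in shScr against 9.22% and 7.50% in shTet3 over 16 CpGs. In BS it was 10.64% and 12.04% against 8.455% and 8.065%.

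By the same criteria as in the bodies, 27 of 1648 promoter CpGs (1.64%) were hypo-DMPs, in 12 members, against a background of 2% of 315292 promoter CpGs. Hyper-DMPs numbered 3, against a background of 0.0542%. Both shTet3 libraries lay below both shScr libraries at 19 of the 27, and shScr replicate 1 was the highest of the 4 libraries at 20 of them. The hypo-DMP count was 12 without shScr replicate 1, 36 without shScr replicate 2, 13 without shTet3 replicate 1 and 19 without shTet3 replicate 2. The 32 promoter CpGs that differed between the shScr replicates by the same criteria are about as many. In BS, 19 of 1700 promoter CpGs were lower, against 1.86%, and none was higher, against 0.0395%, also by Fisher's exact test, with 5 higher at an unadjusted p under 0.05. Of 26 hypo-DMPs covered in BS, 24 had the same sign there and 6 passed the criteria.

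Wnt3, which supports neurogenesis and early patterning, held 9 of the 27 in the 3 stretches printed above. Its promoter mean was 26.9% and 17.6% in shScr against 14.8% and 18.3% in shTet3 over 38 CpGs, so that only shScr replicate 1 stood above the rest, and the difference of -5.73 points was -1.37 without that library, -10.4 without shScr replicate 2 and -9.40 when weighted by reads. The CpG at 103634709 in the upstream stretch, at -755 bp from the TSS, read 46.0% and 17.1% in shScr against 4.85% and 13.8% in shTet3. In the intronic stretch, the CpG at 103635694 read 80.3% and 36.05% against 32.9% and 47.6%, and those at 103635706 and 103635712 read 74.6% and 29.1% against 30.1% and 43.2%, and 65.0% and 33.3% against 21.6% and 31.6%. In this stretch shScr replicate 2 lay within or near the shTet3 values. The short stretch of the first exon differed in this respect, since 103635528 read 16.7% and 19.6% against 2.22% and 0%, and 103635531 read 14.6% and 18% against 5.49% and 1.37%. There the replicates of each group agreed and the groups were apart, with 48 to 91 calls per library. The BS libraries were 8.57% and 9.21% against 1.75% and 4% at 103635528, and 11.4% and 18.4% against 7.02% and 17.6% at 103635531, the latter overlapping. CpGs within a stretch are read largely by the same fragments and are not independent.

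**Figure D4:**
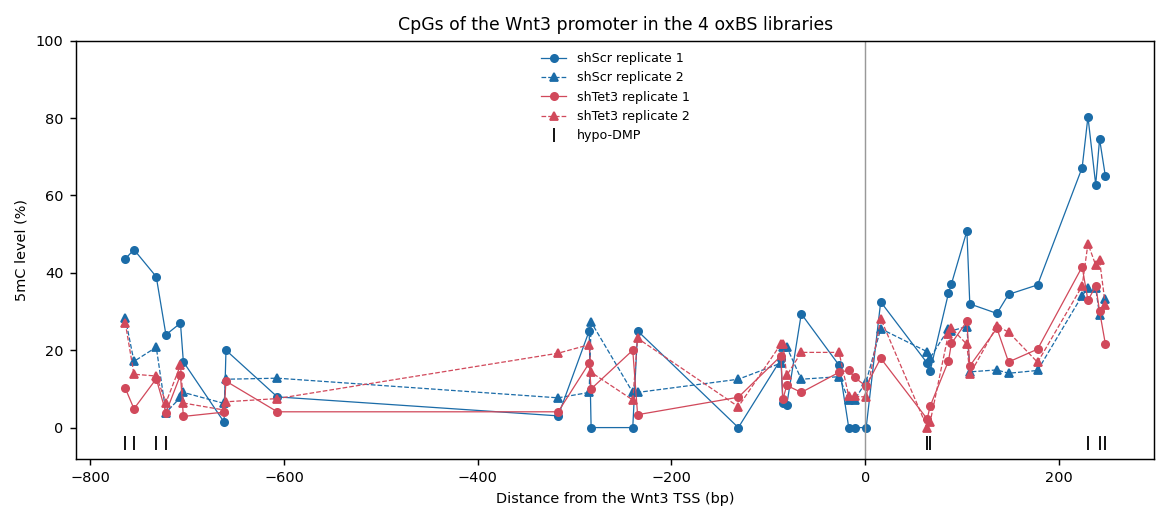
5mC level (y axis, %) at the 38 tested CpGs of the Wnt3 promoter against distance from the TSS (x axis, bp), 1 line per oxBS library (blue shScr, red shTet3, solid with circles replicate 1, dashed with triangles replicate 2), with black ticks at the 9 hypo-DMPs. shScr replicate 1 is the highest library at 23 of the 38 CpGs, and at the 2 ticks just after the TSS both shTet3 libraries lie below both shScr libraries.

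Wnt10b, a canonical ligand that lies next to Wnt1, had the highest ligand promoter level and the largest promoter difference among ligands, with 40.04% and 35.7% in shScr against 30.3% and 29.6% in shTet3 over 27 CpGs (-7.90 points). The difference was -13.4 points when levels were weighted by reads and -3.29 with the wider promoters. BS gave 28.6% and 29.8% against 23.4% and 22.1%, so that the groups were apart in both kinds of library. Its coding-exon CpG at 98604650 read 48.8% and 60.5% against 17.0% and 31.1%. The 2 CpGs of the printed stretch had 23.3% and 47.6% in shScr replicate 1 and 0% and 14.3% in shScr replicate 2, the same levels as in shTet3 replicate 2, which had only 14 calls at each. Wnt1, a ligand of the midbrain, had a promoter mean of 17.0% and 11.5% against 9.53% and 10.5%.

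Wnt5a, a ligand of non-canonical Wnt signalling, had 25.5% and 23.3% against 21.3% and 16.4% over 22 promoter CpGs (-5.53 points, and -12.3 when weighted by reads or -8.86 at a coverage minimum of 5). Its CpG at 29317370, upstream of the TSS and highly methylated, read 89.0% and 86.7% against 71.3% and 59.6%. Wnt2b had 17.4% and 14.04% against 12.9% and 9.78% (-4.36 points, and -2.60 without shScr replicate 1 or -2.79 without shTet3 replicate 2), and its CpG at 104765336 in the printed stretch read 44.3% and 35.1% against 19.6% and 18.1%. At both CpGs the groups were further apart than the replicates. The largest single promoter decrease in pooled calls, at 119399352 in an untranslated exon of Wnt5b, was not of that kind, with 86.6% and 38.9% in shScr against 12.7% and 44.8% in shTet3.

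Among antagonists, Sfrp2, a secreted Frizzled-related protein, had its printed CpGs at 43.9% and 32.7% against 26.1% and 23.7% (83569755), and at 57.7% and 48.2% against 31.1% and 35.4% (83569810), with 104 to 177 calls per library. In BS the CpG at 83569810 read 58.7% and 33.9% against 31.8% and 45.7%, with overlap. Dkk2, which binds the co-receptors, had a promoter mean of 12.7% and 12.9% against 9.76% and 6.66% over 7 CpGs (-4.60 points, and -3.05 without shTet3 replicate 2). The Sfrp4 promoter had 14.2% and 7.99% against 9.83% and 9.90%, and its difference of -1.24 points was 1.87 without shScr replicate 1, -4.34 without shScr replicate 2 and -3.19 with the wider promoters. Dkk3 had the most methylated promoter of all members, at 39.7% and 62.6% against 47.5% and 51.8% over 7 CpGs, with overlap. The well covered promoter of Sfrp1 (60 CpGs) read 0.675% and 1.49% against 0.890% and 0.567%.

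For receptors and cytoplasmic genes the promoter DMPs were few. Lrp5, a co-receptor, had 1 hypo-DMP, at 3687415, with 32.2% and 77.3% in shScr against 31.0% and 26.1% in shTet3, where shScr replicate 1 lay close to the shTet3 libraries. Dvl2, which passes the signal from Frizzled to the degradation complex, had 2, which lie inside the neighbouring gene Phf23, and 1 of them, at 69813353, read 67.8% and 94.8% against 61.3% and 63.8%. The Fzd10 hypo-DMP at 129105949 read 32.5% in shScr replicate 1 and 0%, 1.74% and 0% in the other libraries. The promoters with the most CpGs in their roles were unmethylated in all 4 libraries: Lrp6 ranged from 0.0329% to 0.292% over 69 CpGs, Axin2 from 0.0701% to 0.445% over 63 CpGs, and Wnt9a from 0.306% to 0.535% over 77 CpGs. Tcf7 had 4.10% and 4.62% against 3.75% and 3.03% over 63 CpGs, a difference that turned to 0.132 points when weighted by reads, and Lef1 1.32% and 1.86% against 1.73% and 0.748% over 13 CpGs.

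The hyper-DMPs were small rises from a low level. The Wnt2b CpG at 104764901 read 1.79% and 3.23% in shScr against 21.5% and 5.66% in shTet3, the Wnt3a CpG at 59104150 read 0% and 0% against 12% and 6.67%, and the Fzd10 CpG at 129106954 read 0% and 0% against 16.1% and 5.00%. At all 3 the shTet3 libraries lay above, with replicate 1 the higher. BS gave 0%, 4.41%, 0% and 0% at the Fzd10 CpG, opposite in sign. At the Wnt2b CpG it gave 4.44% and 8.22% in shScr against 20.5% and 0% in shTet3. At the Wnt3a CpG it gave 9.52% and 1.75% against 13.8% and 2%, and the groups overlapped at both. None of the 3 was called in BS. In oxBS, none of the 3 was called without shTet3 replicate 1. Among all member promoter CpGs, 1 hyper-DMP was called when either shScr replicate was left out, and 1 with Fisher's exact test. Whether that CpG was among the 3 named here was not recorded. Of the receptors, Fzd6 had a promoter mean of 0.359% and 0.684% in shScr against 1.94% and 2.85% in shTet3 over 29 CpGs, and its BS means, 1.57%, 1.32%, 0.920% and 2.37%, overlapped.

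A test that does use the spread between replicates was run per gene, with limma on log2 of the ratio of methylated to unmethylated calls, summed over regions of at least 3 CpGs and with 1 added to each count, Benjamini-Hochberg adjusted over all genes. For bodies, the fit took the spread wholly from its trend over all genes, so a gene's own replicate spread did not enter. No member promoter passed an adjusted p under 0.05 in either direction, where the background was 0% of 12671 promoters for both. No member body passed, where the background was 0.211% of 10911 bodies lower and 0% higher. At an unadjusted p under 0.05 there were 5 lower bodies (Wnt2, Gsk3b, Wnt3a, Fzd4 and Wnt7a), no higher body, no lower promoter, and 1 higher promoter, that of Fzd6. The backgrounds at that p were 25.8% of bodies lower, 0.357% higher, and 4.65% of promoters lower and 0.694% higher. The Wnt2 body had a log2 ratio of -1.49 (SE 0.603, limma adjusted p = 0.158), and the Fzd6 promoter one of 1.91 (SE 0.570, limma adjusted p = 0.826). The median log2 ratio was -0.79 over 47 member bodies and -0.99 over all bodies, and -0.26 over 48 member promoters and -0.33 over all promoters. Without shScr replicate 1, 17 of 47 member bodies (36.2%) passed, against a background of 57.2% of all bodies, with the remaining shScr library assumed to vary like the others.

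Libraries of the oxBS and BS kinds made from shared DNA differ where 5hmC is present. The study could call hydroxymethylated CpGs only at a high false discovery rate. As likely reasons it gives low 5hmC in NPCs and its place mostly within genes, where oxRRBS reads mainly promoters and CpG islands. It treats BS below oxBS as an artefact. In shScr, BS exceeded oxBS by 0.745 and 0.556 points in the 2 replicates over 3257 member CpGs, and by 0.366 and 0.256 points over all promoters and bodies. In shTet3 the members' values were 0.000779 and 0.673 points. At single CpGs of shScr, 15 had BS above oxBS and 1 had it below, against backgrounds of 0.278% and 0.138% of 505010 CpGs. With a replicate block, which here marks shared DNA, the counts were 11 and 2. In shTet3 none was called above or below by this test or by Fisher's exact test, against 0.0186% and 0.0124%, and at an unadjusted p under 0.05 there were 91 above and 71 below. The change in the BS-oxBS difference between shScr and shTet3 was not tested.

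Of these 15 CpGs, 7 had both BS libraries above both oxBS libraries. The intronic Ctnnb1 CpG at 120841486 read 49.4% and 52.3% in oxBS and 73.9% and 77.0% in BS of shScr, and 59.7% and 62.4% against 54.0% and 65.3% in shTet3. The Fzd10 CpG at 129106242, at -477 bp from the TSS, read 6.98% and 5.77% in oxBS and 46.3% and 23.0% in BS of shScr. At both CpGs the BS libraries of shScr lay above its oxBS libraries. Frzb, a secreted antagonist, had 3 neighbouring CpGs in an untranslated exon. Its CpG at 80253381 read 25.7% and 57.5% in oxBS and 57.3% and 67.2% in BS, and there shScr oxBS replicate 1 was low. The count above was 95 without oxBS replicate 2, 60 without BS replicate 1, 26 without BS replicate 2 and 12 without oxBS replicate 1, and the count below was 28, 14, 51 and 11 in the same order.

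Other genes of the pathway, 51 in all, such as R-spondins, Lgr receptors, Tle co-repressors and the Wnt secretion factor Wls, were taken as a second list. In their promoters, 21 of 1404 CpGs were hypo-DMPs and none a hyper-DMP, against the promoter backgrounds of 2% and 0.0542%. In their bodies 302 of 1061 (28.5%) were hypo-DMPs and 1 a hyper-DMP, against 21.9% and 0.142%. Body 5mC was 58.5% and 66.7% in shScr against 48.3% and 50.6% in shTet3 (-13.1 points). By limma 0 of 44 bodies and 0 of 47 promoters passed, with 11 lower bodies and 2 lower promoters at an unadjusted p under 0.05, against backgrounds of 25.8% and 4.65%. Body levels of both lists were thus lower in shTet3, and the second list, with higher levels in shScr, had the larger difference, which was not tested against that of the first.

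The letters CTTTGAT or their complement ATCAAAG, a core sequence bound by TCF/LEF factors, were searched on both strands of all promoters. Among genes with a single promoter window, 5 of 32 members (15.6%) held it, against 19.1% of 11904 genes. Axin2, with several start sites, held 4 matches, of which 2 are shown because its promoter is a known target of the pathway, with the match in capitals.
Axin2 at chr11:108782536-108782562: ggccggcgcgCTTTGATgtgcggggcg
Axin2 at chr11:108784376-108784402: tactttcttgCTTTGATgttgggtaga
A match is only a run of letters, and the Axin2 promoter CpGs stayed under 0.5% on average in every oxBS library.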

How the data were processed

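Genomic DNA of 8 oxRRBS libraries (MspI-cut, oxBS or BS) was analysed. Per the labels and methods, reads were trimmed with Trim Galore, aligned with Bismark to mm9 and written in methylKit format; versions are not given in the sources used here. For each CpG, the authors deposited a coverage count and 2 percent values, for C (methylated) and for T. The same 757812 CpGs stand in every file, each with at least 5 calls, and all lay on a forward-strand CpG of mm9. Methylated counts were recovered from percent and coverage.

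The members and the lists were chosen with earlier results of these data known. CpGs were tested with a logistic model compared by likelihood ratio (Python 3.11.15, scipy 1.17.1), gene regions by limma 3.58.1 (R 4.3.3), set means by exact permutation tests. Named were members with a promoter DMP, the 8 largest body differences among members with at least 5 body CpGs, Wnt3, Wnt3a, Axin2, Lef1 and the member of each role with most promoter CpGs, and the 5 largest separated hypo-DMPs with the separated hyper-DMPs. Other genes and CpGs named were chosen after their values were seen. Some promoters and bodies overlap another gene, whose CpGs cannot be assigned to either.

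Replicate numbers did not pair shScr with shTet3 (correlation of deviations -0.049 in oxBS and -0.044 in BS), while oxBS and BS libraries of 1 number share DNA (0.429 and 0.252). Both tests were run on simulated calls. The logistic test recovered 69% of CpGs changed by 30 percentage points, and limma 98% of bodies changed by a log odds of 1. The simulated replicates had no spread beyond counting error at CpGs, and little at bodies. The simulations therefore cannot show how the tests behave at the spread seen between the shScr replicates. Counting error at 10 calls is wide, and levels of single CpGs rest on the coverage given beside them. Alternatives were coverage minimums, promoter width, read weighting, other tests, a replicate block and leaving out each library.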

Additional observations from a re-analysis of the deposited data

How the results depend on the processing

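The mean differences of promoters and bodies kept their sign under every alternative run. With levels weighted by reads, however, the promoter groups overlapped. There the difference was -0.97 points in oxBS and -0.94 in BS, each at an exact permutation p of 0.67. Leaving out 1 library gave -1.20 to -0.775 points for promoters and -9.89 to -5.36 for bodies in oxBS, and -1.38 to -0.671 and -10.0 to -5.86 in BS. It gave 12 to 36 promoter hypo-DMPs, 0 to 4 promoter hyper-DMPs, 143 to 320 body hypo-DMPs and 3 to 7 body hyper-DMPs. In BS it gave 11 to 31 promoter CpGs lower, 0 to 2 higher, 131 to 355 body CpGs lower and 0 to 7 higher. For BS above oxBS it gave 12 to 95 CpGs in shScr and 0 to 5 in shTet3, and for BS below oxBS 11 to 51 and 0 to 9. By limma it gave 0 to 17 lower bodies, 17 being the count without shScr replicate 1 (background 57.2%), and 0 for lower promoters, higher promoters and higher bodies.

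Between shTet3 and shScr a replicate block can only join libraries by their number, and there the numbers did not pair the samples. It gave 30 promoter and 269 body hypo-DMPs and, by limma, 2 of 47 lower bodies (4.26%), against a background of 4.38%. Between BS and oxBS, where the block joins libraries of shared DNA, it gave 2 CpGs with BS below oxBS in shScr. The block moved no other count by over 1.5 times. The overdispersion-corrected F test, with 2 residual degrees of freedom, called 0 CpGs in each comparison. Since it made no call on simulated data either, these zeros after adjustment carry no information. An unadjusted p under 0.05 by this test was found at 36 of the 256 body hypo-DMPs and 2 of the 27 promoter hypo-DMPs. None of the 3 promoter hyper-DMPs had one. Fisher's exact test gave 1 promoter hyper-DMP, a coverage minimum of 5 gave 1 body hyper-DMP, promoters from -2 kb to 1 kb gave 35 promoter CpGs lower in BS, and asking for both BS libraries above both oxBS libraries left 7 CpGs in shScr. Of 48 regions of the named members, 9 changed sign when 1 library was left out (7 promoters and 2 bodies), and 6 under another setting. Coverage limits single CpGs, and with 2 replicates a group no set mean can pass an exact test.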
